A study of Homo sapiens with 17 samples.

Results

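The replication-dependent histone genes are here the 69 protein-coding genes, of 20037 in the annotation, whose symbol is H1-1 to H1-6 or H2AC, H2BC, H3C or H4C followed by a number. They comprise 6 linker histone H1 genes, 17 H2A, 18 H2B, 13 H3 and 15 H4 genes. A total of 55 lie on chromosome 6, 13 on chromosome 1 and 1, H4C16, on chromosome 12. The choice used symbols and no measured value.

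The measurements were Flag ChIP-seq peak lists from Caco-2/15, a human colon cancer cell line in which confluence starts an enterocyte-like differentiation. Genome editing with CRISPR-Cas9 had added a Flag tag in the 3′ region of a single allele, so that the cells were heterozygous H2AFV-Flag (tagged H2A.Z.2, gene now called H2AZ2) or heterozygous H2AFZ-Flag (tagged H2A.Z.1, gene now called H2AZ1). There were 4 groups of 2 lists (Exp1 and Exp2): H2A.Z.2 and H2A.Z.1 in cells 7 days postconfluent, and H2A.Z.2 and H2A.Z.1 in subconfluent cells. The other allele and the other isoform were untagged in every group, so the lists show tagged protein only. The sources used here do not say whether a line is a single clone or whether Exp1 and Exp2 are separate cultures, so the spread between lists may be partly technical. Interval names of the Exp2 lists carry an extra number, different for the 2 isoforms, whose meaning no label gives, so Exp1 and Exp2 may differ in more than the experiment.

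Replication-dependent histone genes supply the bulk of the nucleosome proteins and are transcribed mainly in S phase, in a nuclear compartment called the histone locus body where the coactivator NPAT gathers. They are short and clustered, and many H2A and H2B genes stand head to head over a shared promoter. Their mRNAs end in a stem-loop bound by SLBP in place of a poly(A) tail. H2A.Z is a variant of H2A made outside these clusters and through the whole cell cycle, and it is known for the nucleosomes that flank the start sites of many genes.

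A gene is called occupied in a list where a deposited interval lay within 1 kb of either annotated end of the gene, with an overlap of 1 bp or more. Whole lists held 30603 to 79425 intervals over 18.5 to 46.9 Mb, so counts rest on the 30603 intervals of each list with the highest −log10 p unless whole lists are named. The strength of a gene is the percentile, within its own list, of the authors' fold enrichment of its strongest interval. A peak list gives no read depth and no level below the authors' threshold, so an unoccupied gene may hold H2A.Z under that threshold. The interval names give 3 sequencing runs: 1 for H2A.Z.2 in Exp1, 1 for H2A.Z.1 in Exp1 and 1 for all 4 lists of Exp2. Peak lists do not show expression, so the cell type cannot be checked from them. Of 8 epithelial markers 4 to 8 were occupied per list. HNF4A (percentiles 74.0 to 96.2), CDX2 (43.3 to 82.1) and CDH1 (24.8 to 58.0) were in all 8 lists. VIL1 was in 6 lists and EPCAM in 5. KRT8 and KRT18, which have the same values in every list, and KRT19 were in 4 lists each. Of 8 markers of other cell types 2 to 4 were occupied per list. COL1A1, a fibroblast collagen gene, was in all 8 at percentiles 54.0 to 77.3 and PECAM1, an endothelial gene, in 7, while PTPRC, VWF and COL1A2 were among the 4 in no list.

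Histone genes carried tagged H2A.Z more often after confluence than before it. Of the 69 genes, postconfluent lists held 28 and 37 for H2A.Z.2 and 34 and 29 for H2A.Z.1 (Exp1 and Exp2), against 13 and 19 for H2A.Z.2 and 23 and 14 for H2A.Z.1 in subconfluent lists. The counts of the 2 states did not overlap: the lowest postconfluent count was 28 and the highest subconfluent count 23. The mean was 32 ± 4.24 genes (46.4%) in postconfluent lists and 17.25 ± 4.65 genes (25%) in subconfluent lists (SD, n = 4 each). Over all protein-coding genes the same lists were alike, with 12036 to 12411 occupied in postconfluent and 11947 to 12415 in subconfluent lists (60.1% to 61.9% and 59.6% to 62.0%). Genes of at most 2 kb that are not histone genes, the nearest in size, were occupied at 20.6% to 22.4% in postconfluent and 20.4% to 22.5% in subconfluent lists.

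The direction was the same in every like-for-like pair of lists. Postconfluent lists held 15 and 18 more histone genes than subconfluent lists for H2A.Z.2 (Exp1 and Exp2) and 11 and 15 more for H2A.Z.1, and each of these differences lies within a single sequencing run. Few histone genes went the other way, with 1, 0, 2 and 0 found in the subconfluent list of a pair and not in its postconfluent list. In the postconfluent list only were 16, 18, 13 and 15 histone genes. Over all protein-coding genes, 432, 621, 334 and 572 were in the postconfluent list only. In the subconfluent list only were 526, 360, 443 and 576, so all genes leaned to the postconfluent side in H2A.Z.2 Exp2. Counted as distinct intervals near histone genes, the lists held 20, 33, 31 and 22 in postconfluent cells and 11, 15, 19 and 13 in subconfluent cells. Grouped into 39 loci of gene bodies at most 2 kb apart, 17, 20, 20 and 15 loci were occupied in postconfluent and 9, 13, 15 and 10 in subconfluent cells. Counted by locus the ranges meet at 15.

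**Figure D1:**
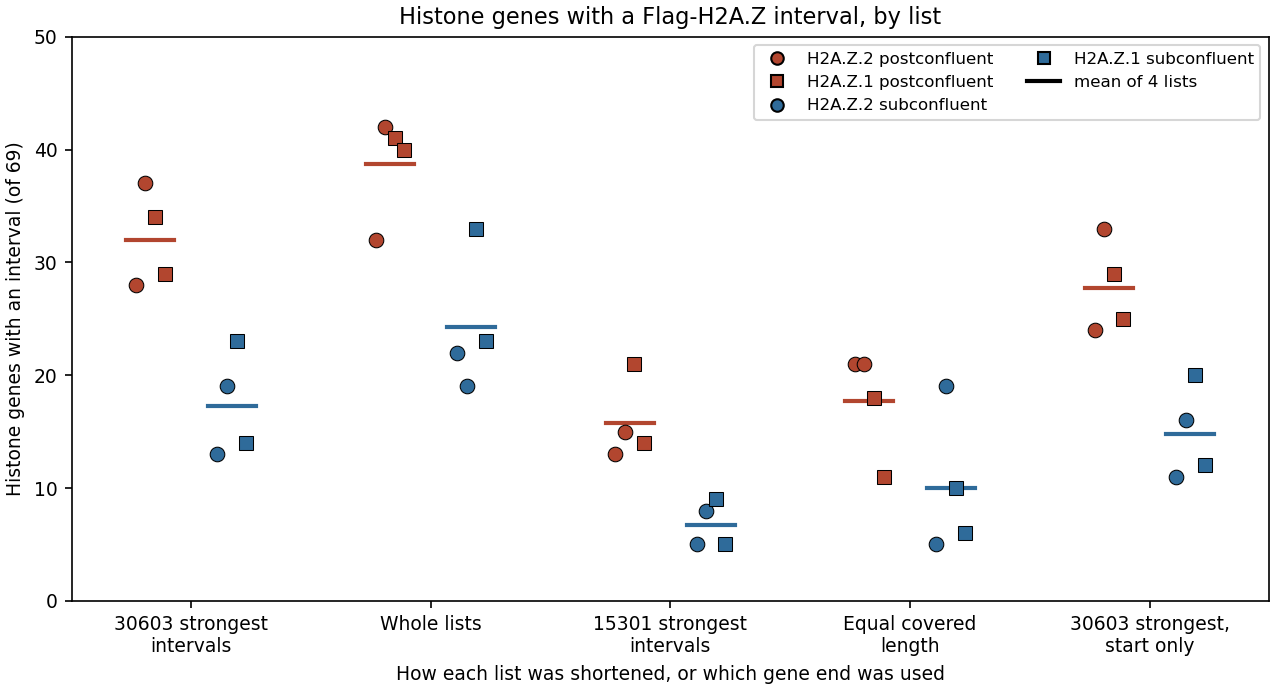
Number of the 69 histone genes with a Flag-H2A.Z interval within 1 kb of a gene end (y axis), by how the lists were shortened or which gene end was used (x axis). Each point is 1 list, circles H2A.Z.2 and squares H2A.Z.1, red postconfluent and blue subconfluent, and bars are means of 4 lists. With 30603 intervals a list, postconfluent lists sit at 28 to 37 and subconfluent lists at 13 to 23, while for whole lists and equal covered length the ranges overlap.

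List length bears on the separation. With whole lists the counts were 32, 42, 41 and 40 in postconfluent and 22, 19, 33 and 23 in subconfluent cells, so that the H2A.Z.2 postconfluent Exp1 list with 32 fell below the H2A.Z.1 subconfluent Exp1 list with 33. The shares of all genes were 62.3%, 65.0%, 66.4% and 69.9% in postconfluent and 65.8%, 59.6%, 65.3% and 69.1% in subconfluent whole lists, so the lists were less alike in this setting. With lists of equal covered length they were 21, 21, 18 and 11 against 5, 19, 10 and 6, and the ranges again overlapped. All genes then stood at 52.0%, 53.4%, 49.2% and 48.0% in postconfluent and 48.7%, 59.6%, 51.7% and 54.9% in subconfluent lists. The second of those subconfluent lists, H2A.Z.2 Exp2, is the shortest and is used whole in each of these settings. With the 15301 strongest intervals per list they were 13, 15, 21 and 14 against 5, 8, 9 and 5, with 48.5% to 50.05% of all genes in postconfluent and 47.8% to 50.6% in subconfluent lists.

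The difference came from core histone genes, mainly H2A, H3 and H2B, and the mean of H1 genes was the same in both states. H2A genes were occupied at 10.5 ± 1.00 of 17 in postconfluent and 4.5 ± 1.91 of 17 in subconfluent lists (SD, n = 4 each). H3 genes followed with 6 ± 0.816 of 13 in postconfluent and 1.75 ± 0.5 of 13 in subconfluent lists. For these 2 families the counts of the states did not overlap in the shortened lists. All protein-coding genes stood at 60.1% to 61.9% in postconfluent and 59.6% to 62.0% in subconfluent lists. H2B genes stood at 9.5 ± 2.08 of 18 in postconfluent and 5.75 ± 1.5 of 18 in subconfluent lists, with ranges that met at 7. H4 genes averaged 3.25 ± 0.957 of 15 in postconfluent and 2.5 ± 1.00 of 15 in subconfluent lists. H1 genes averaged 2.75 ± 0.5 of 6 in each state. In whole lists, H2A counts ran from 11 to 13 in postconfluent and 5 to 11 in subconfluent lists, so that the states met at 11. H3 counts then ran from 5 to 7 and from 2 to 4. The differences between families were not tested.

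**Figure D2:**
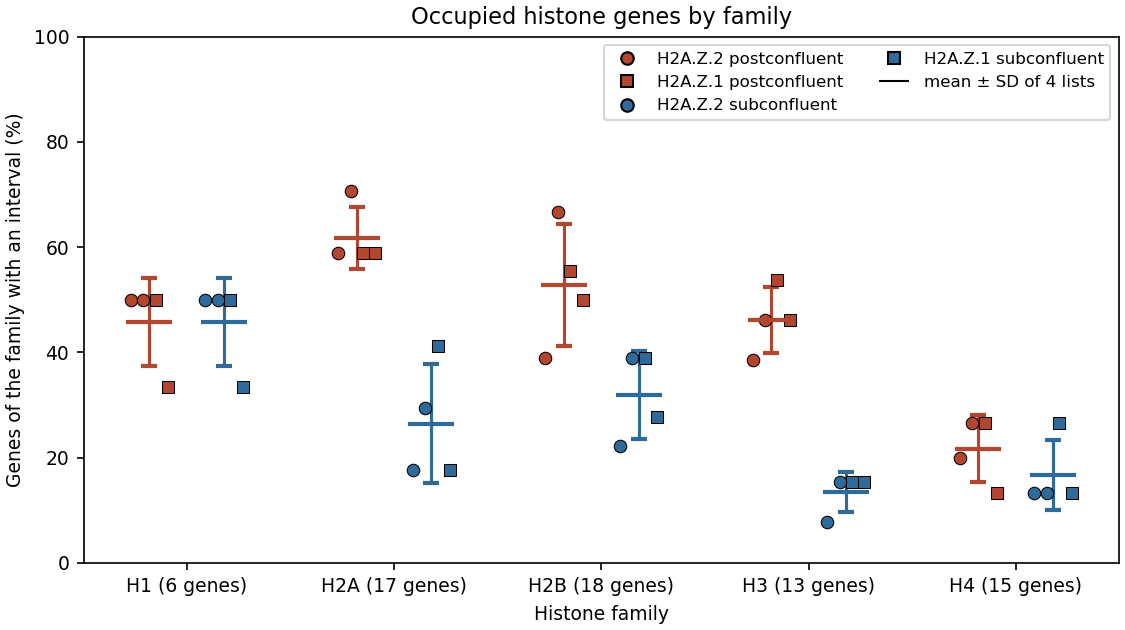
Share of each histone family with a Flag-H2A.Z interval (y axis, percent) by family (x axis). Each point is 1 list, with red postconfluent lists left of blue subconfluent lists, and bars are mean ± SD of 4 lists. The states separate for H2A and H3, and overlap for H1, H2B and H4.

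By position, the gain in lists after confluence was present in each large group of genes on chromosome 6. In the sub-cluster at 25.73 to 26.29 Mb (34 genes), 10, 14, 14 and 9 genes were occupied in postconfluent and 5, 9, 10 and 6 in subconfluent lists. The postconfluent list held more in each like-for-like pair there, but the ranges of the states overlap. In the one at 27.81 to 27.89 Mb (16 genes), the counts were 9, 13, 11 and 10 in postconfluent and 4, 3, 6 and 3 in subconfluent lists. The 5 genes at 27.13 to 27.15 Mb had 4 occupied in each postconfluent list and 1, 3, 4 and 1 in subconfluent lists, with no gain in H2A.Z.1 Exp1. On chromosome 1, the 11 genes at 149.78 to 149.89 Mb had 2, 3, 2 and 3 occupied in postconfluent and 0, 1, 0 and 1 in subconfluent lists. The pair H2AC25 and H2BC26 at 228.46 Mb and H4C16 at 14.77 Mb of chromosome 12 were occupied in every list. Beside these counts, 60.1% to 61.9% of all protein-coding genes were occupied in postconfluent and 59.6% to 62.0% in subconfluent lists. Within the sub-clusters, between the outermost histone genes of each, lie 7 other protein-coding genes, of which 4 were in no list. Genes in the gaps between sub-clusters were not counted. HFE (mean percentile 94.3), which encodes an iron regulator, and TRIM38 (71.7), a ubiquitin ligase gene, were in all 8 lists, and LOC124904411 (75.9) was in 4 postconfluent and 3 subconfluent lists. Presence varied at 1 of the 7 only, so these neighbours give little to set the histone genes against.

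**Figure D3:**
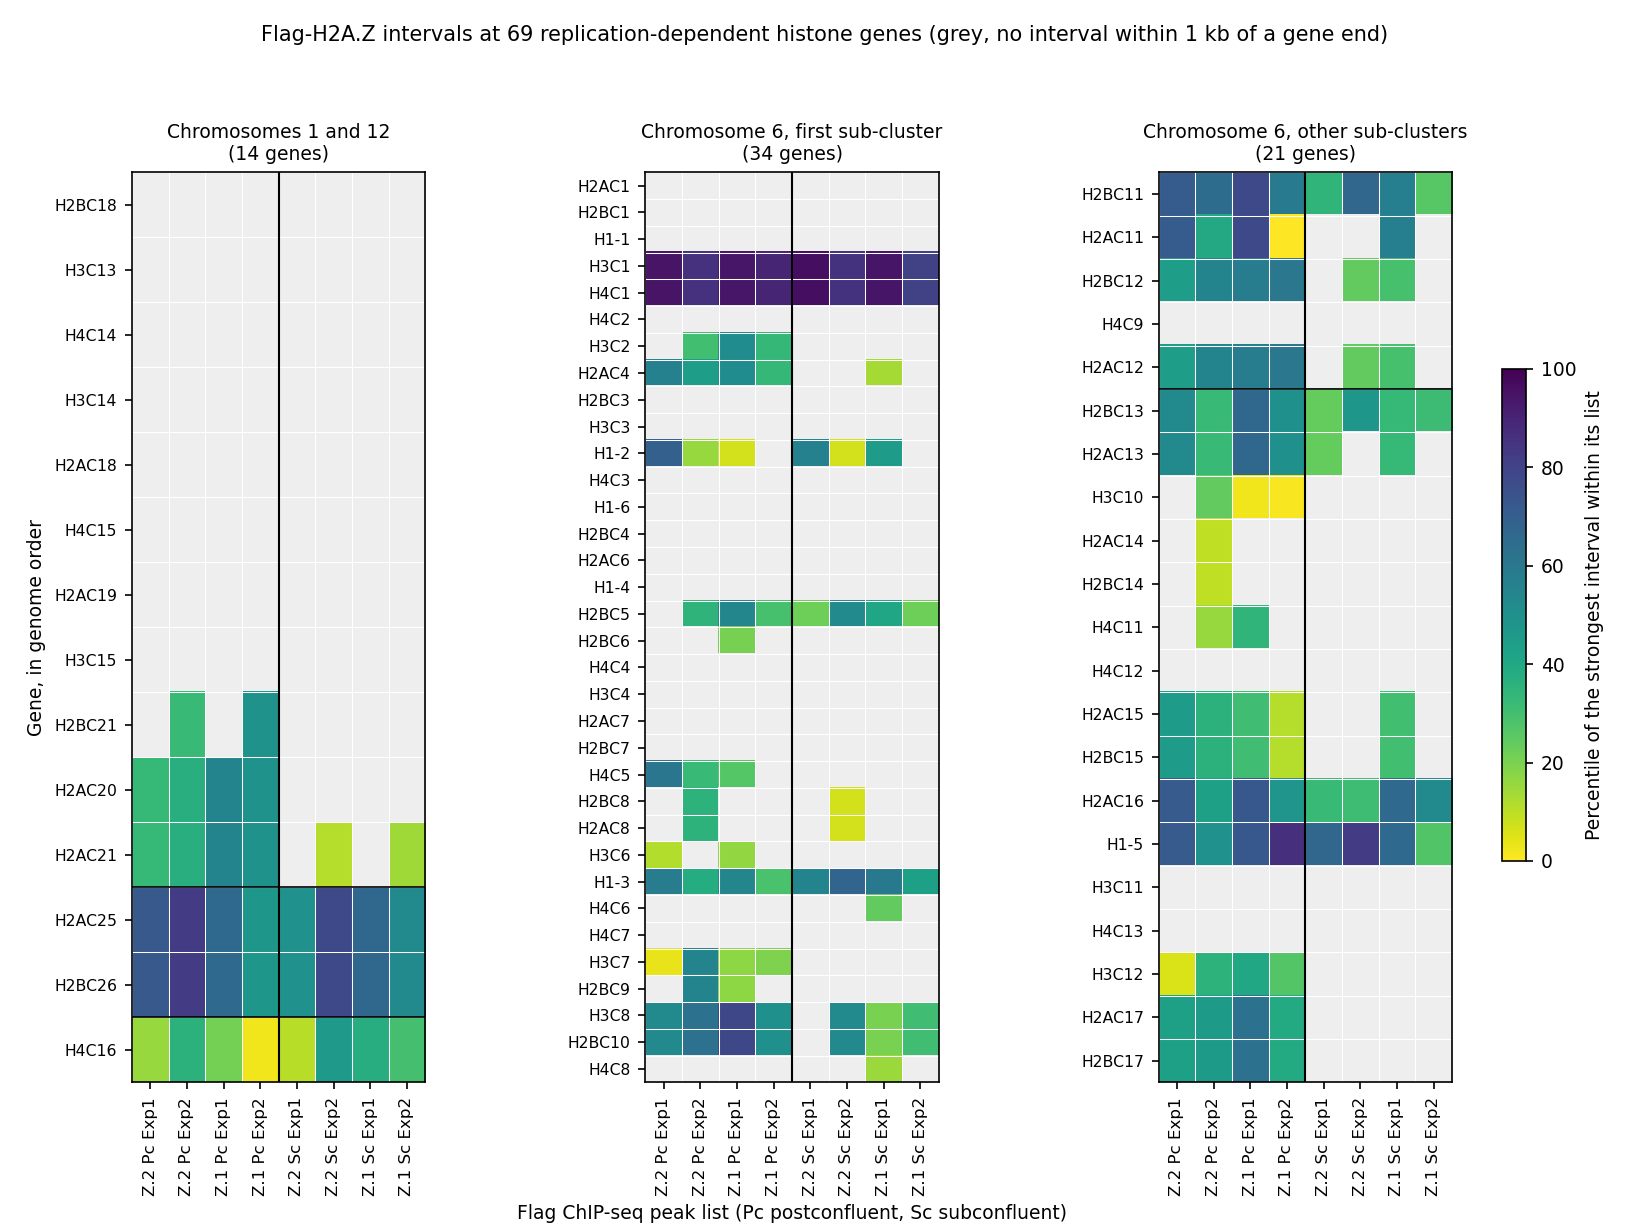
Percentile, within its list, of the strongest interval at each of the 69 histone genes (rows, in genome order) in the 8 lists (columns, 4 postconfluent left of 4 subconfluent). Grey is no interval within 1 kb of a gene end, and horizontal black lines part sub-clusters. H3C1 and H4C1 are the strongest rows (80.1 to 96.2), and 28 rows are grey throughout.

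Where histone genes were occupied, the intervals were weaker than at other occupied genes. The median percentile of occupied histone genes was 52.1, 37.2, 55.1 and 47.2 in the postconfluent lists and 49.4, 52.2, 37.8 and 31.2 in the subconfluent lists. That of all occupied protein-coding genes was 75.04 to 76.6 in postconfluent and 74.0 to 76.4 in subconfluent lists. Occupied short genes other than histone genes stood between, at 67.0 to 70.3 and 62.9 to 67.5. The histone medians of the states overlapped, and each is taken over a different set of occupied genes.

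**Figure D4:**
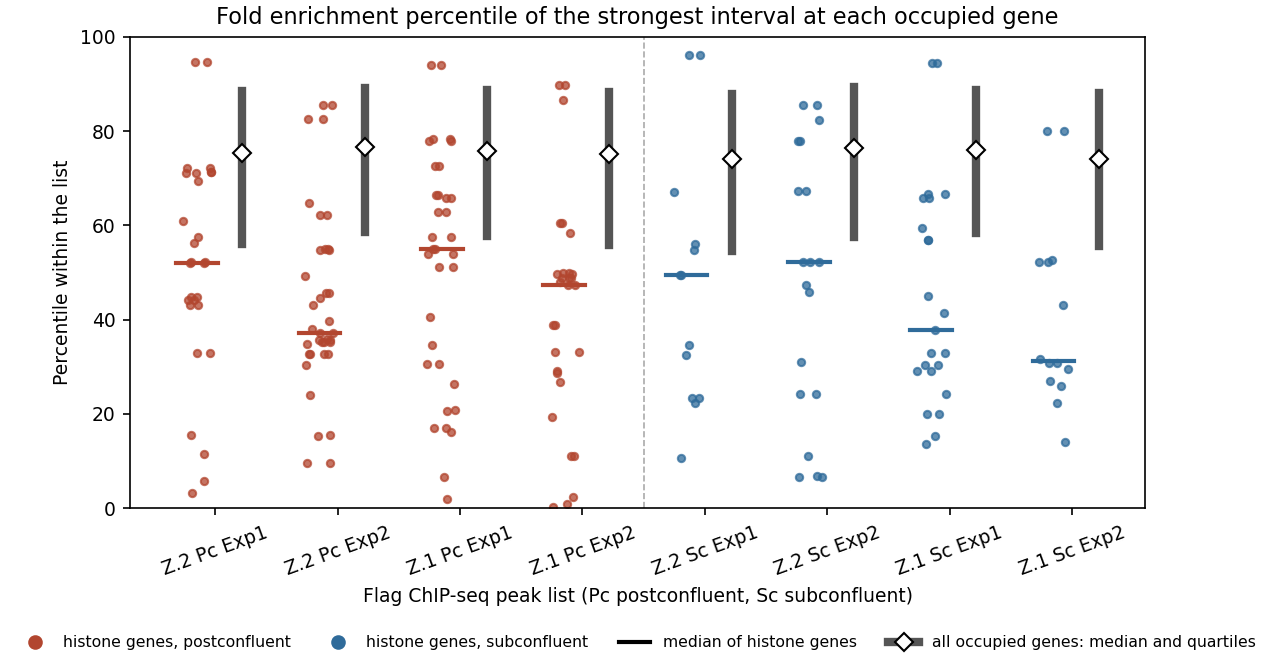
Percentile within its list (y axis) of the strongest interval at each occupied histone gene (points, with bars at their medians) in the 8 lists (x axis, postconfluent left). Grey bars and diamonds give the quartiles and median of all occupied protein-coding genes. In every list the histone median, 31.2 to 55.1, lies below the median of all occupied genes, 74.0 to 76.6.

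A total of 10 histone genes (14.5%) were occupied in all 8 lists, against 54.5% of all protein-coding genes. They were H3C1, H4C1, H2AC25, H2BC26, H1-5, H1-3, H2BC11, H2BC13, H2AC16 and H4C16. A further 31 were occupied in some lists and 28 (40.6%) in none, where the share of all genes in none was 33.1%. In whole lists 13 histone genes (18.8%) were in all 8, against 57.9% of all genes. Neighbouring histone genes often shared an interval. The 37 genes of the fullest list, H2A.Z.2 postconfluent Exp2, had 26 distinct strongest intervals between them, and 22 of them shared theirs.

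The strongest and steadiest site was the interval shared by H3C1, an H3 gene (chromosome 6, 26020451 to 26020958), and its neighbour H4C1, an H4 gene (26021649 to 26022050). It stood at percentiles 94.7 and 85.6 for H2A.Z.2 and 94.0 and 89.7 for H2A.Z.1 in postconfluent lists, and at 96.2 and 85.5 for H2A.Z.2 and 94.4 and 80.1 for H2A.Z.1 in subconfluent lists. The states overlap throughout. Its fold enrichment in the authors' lists was 9.48 to 15.0. The next pair, H2AC25 (chromosome 1, 228457364 to 228457873) and H2BC26 (228458103 to 228458558), an H2A and an H2B gene head to head, also shared 1 interval. It stood at 72.2 and 82.5 for H2A.Z.2 and 65.8 and 47.2 for H2A.Z.1 in postconfluent lists, and at 49.4 and 77.9 for H2A.Z.2 and 66.6 and 52.2 for H2A.Z.1 in subconfluent lists. H4C16 (chromosome 12, 14770720 to 14771131), an H4 gene away from the clusters, was the weakest of the 10. It stood at 15.5 and 35.8 for H2A.Z.2 and 20.9 and 2.31 for H2A.Z.1 in postconfluent lists, and at 10.7 and 45.8 for H2A.Z.2 and 37.8 and 29.6 for H2A.Z.1 in subconfluent lists.

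Among the H1 genes, which encode linker histones, H1-5 (chromosome 6, 27866792 to 27867588) was the strongest. It stood at 71.2 and 49.3 for H2A.Z.2 and 72.6 and 86.6 for H2A.Z.1 in postconfluent lists, and at 67.0 and 82.4 for H2A.Z.2 and 65.8 and 27.0 for H2A.Z.1 in subconfluent lists. For H2A.Z.1 the 2 postconfluent values lie above the 2 subconfluent ones, and for H2A.Z.2 they overlap. H1-3 (26234212 to 26234987) stood at 57.5 and 37.9 for H2A.Z.2 and 54.0 and 28.7 for H2A.Z.1 in postconfluent lists, and at 54.8 and 67.3 for H2A.Z.2 and 59.5 and 43.2 for H2A.Z.1 in subconfluent lists. Its values in the 2 states overlap. The H2B genes H2BC11 (27132316 to 27132795) and H2BC13 (27807479 to 27807929) and the H2A gene H2AC16 (27865317 to 27865798) made up the rest. H2BC11 stood at 71.1 and 64.8 for H2A.Z.2 and 77.9 and 58.3 for H2A.Z.1 in postconfluent lists, and at 34.7 and 67.2 for H2A.Z.2 and 56.8 and 25.9 for H2A.Z.1 in subconfluent lists. H2BC13 stood at 52.0 and 32.6 for H2A.Z.2 and 66.4 and 49.8 for H2A.Z.1 in postconfluent lists, and at 23.5 and 47.3 for H2A.Z.2 and 32.9 and 31.6 for H2A.Z.1 in subconfluent lists. H2AC16 stood at 71.2 and 43.0 for H2A.Z.2 and 72.6 and 48.0 for H2A.Z.1 in postconfluent lists, and at 32.5 and 31.1 for H2A.Z.2 and 65.8 and 52.5 for H2A.Z.1 in subconfluent lists. Each of the 3 overlaps between states over the 8 lists.

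No histone gene passed the test of a change in strength. The 10919 genes occupied in all 8 lists were ranked by fold enrichment within each list, turned into normal scores (standard deviations of a normal distribution) and fitted with limma, with Benjamini-Hochberg adjustment over all of them. By state, 6 genes passed at an adjusted p of 0.05 (0.055% of those ranked), none of them among the 10 histone genes, and no histone gene had an unadjusted p under 0.05, against 9.13% of all ranked genes. The 10 histone genes had a median postconfluent minus subconfluent difference of 0.21 in score, with 8 of 10 above 0. Over all ranked genes the median was -0.00082, with 49.9% above 0. The 10 genes are not 10 separate sites, since H3C1 and H4C1 share an interval, as do H2AC25 and H2BC26. Among the 10, H2BC11 had the largest difference at 0.78 ± 0.38 (SE, limma adjusted p = 0.551), followed by H2BC13 at 0.55 ± 0.36 (limma adjusted p = 0.658). H4C16 at -0.45 ± 0.37, H2AC16 at 0.44 ± 0.38 and H1-3 at -0.40 ± 0.36 came next (limma adjusted p = 0.752, 0.770 and 0.785). The 10 are the histone genes with an interval in every list, so genes whose presence changed are outside this test.

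**Figure D5:**
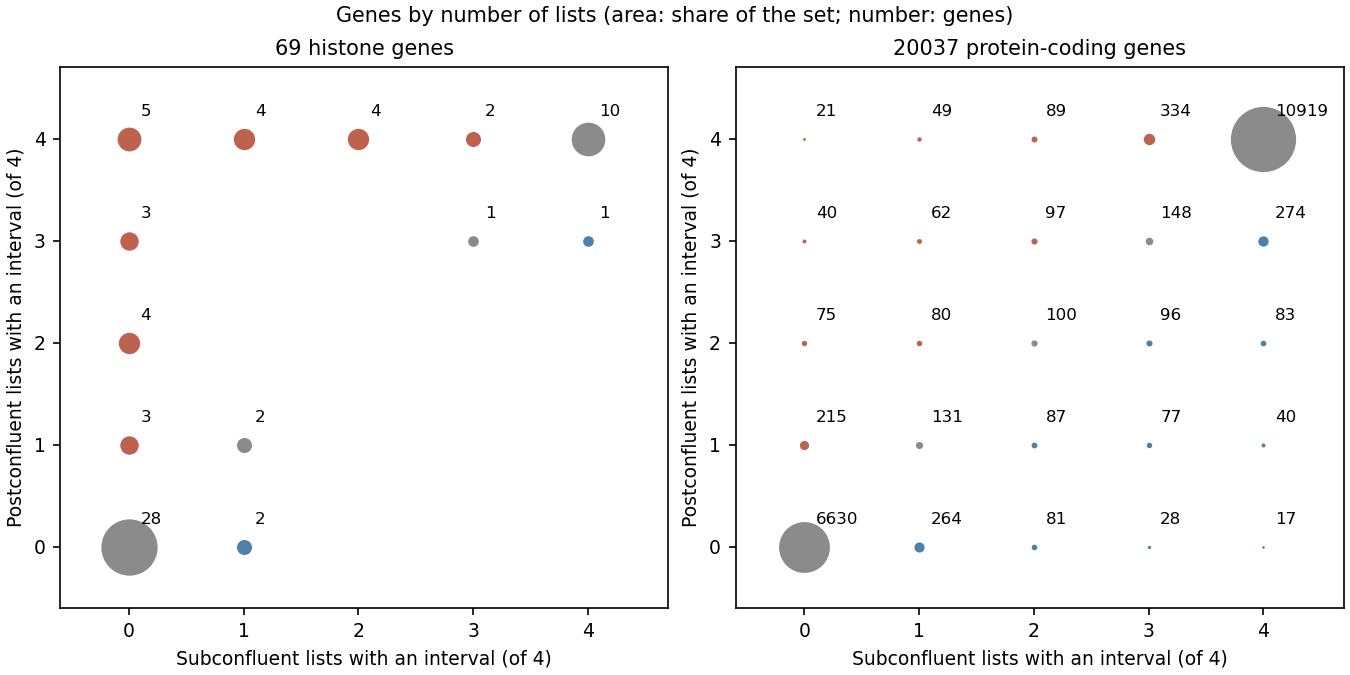
Genes by the number of postconfluent lists (y axis, 0 to 4) and subconfluent lists (x axis, 0 to 4) in which they were occupied, for the 69 histone genes and for all 20037 protein-coding genes. The area of a circle is the share of the set and the number beside it the genes, with red for more postconfluent lists, blue for more subconfluent lists and grey for as many of each. Histone genes fill the left and upper edges, with 25 in more postconfluent lists and 3 in more subconfluent lists, while all genes hold 1062 and 1047.

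Among the 31 histone genes occupied in some lists only, 25 (80.6%) were in more postconfluent than subconfluent lists, 3 in more subconfluent lists and 3 in as many of each. Over all 69 that is 36.2% and 4.35%, where all protein-coding genes gave 5.3% and 5.23%. Taking only the genes of the whole annotation that were occupied in some lists, 42.7% were in more postconfluent and 42.1% in more subconfluent lists. Whole lists gave 30 histone genes (43.5%) in more postconfluent and 2 in more subconfluent lists, against 7.67% and 5.31% of all genes.

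A set of 5 histone genes was occupied in all 4 postconfluent lists and no subconfluent list, against 21 genes of the whole annotation (0.105%), and none was occupied the other way round (17 genes, 0.0848%). These were H2AC20, H3C7, H3C12 and the head-to-head pair H2AC17 and H2BC17, which share 1 interval in each list. H2AC17 (chromosome 6, 27892699 to 27893185), an H2A gene, and H2BC17 (27893425 to 27893891), an H2B gene, stood at percentiles 43.0 and 45.7 for H2A.Z.2 and 62.7 and 38.8 for H2A.Z.1 in postconfluent lists. H2AC20 (chromosome 1, 149886918 to 149887411), an H2A gene, stood at 32.97 and 37.2 for H2A.Z.2 and 55.1 and 48.9 for H2A.Z.1. Its neighbour H2AC21 (149887469 to 149887965) had the same values in these lists. H2AC21 was also in both subconfluent Exp2 lists, at 11.03 for H2A.Z.2 and 14.1 for H2A.Z.1. The absence before confluence therefore holds within 1 kb of the ends of H2AC20 and not of those of H2AC21. These percentiles rank fold enrichment, while lists were cut by −log10 p, so they do not give the distance from the cut. By −log10 p, the interval of H2AC17 and H2BC17 lay below the median of its list except in H2A.Z.1 Exp1. That of H2AC20 lay below the median in the H2A.Z.2 lists and above it in the H2A.Z.1 lists. Whether the cut accounts for the change in presence was not tested. H3C7 (chromosome 6, 26250142 to 26250635), an H3 gene, stood at percentiles 3.27 and 54.7 for H2A.Z.2 and 17.1 and 19.4 for H2A.Z.1. H3C12 (chromosome 6, 27890315 to 27890826), also an H3 gene, stood at 5.83 and 35.2 for H2A.Z.2 and 40.5 and 26.8 for H2A.Z.1. In whole subconfluent lists, H3C12 alone of the 5 was still unoccupied. H2AC20 then appeared in the H2A.Z.2 Exp1 list at percentile 24.1 and in the H2A.Z.1 Exp1 list at 31.9. H3C7 appeared in the H2A.Z.1 Exp1 list at 16.9, and H2AC17 and H2BC17 in the same list at 29.3. Whole lists gave 4 histone genes in all postconfluent and no subconfluent list, H2AC14, H2BC14, H4C11 and H3C12, against 0.11% of all genes. Without the H2A.Z.1 subconfluent Exp1 list, 9 histone genes were in all remaining postconfluent lists and no remaining subconfluent list, against 0.195% of all genes.

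The promoters of H2AC17, H3C7 and H2AC20 are shown because these genes were occupied in postconfluent lists only, beside H3C1 and H2BC11, which were present in every list. Each line gives the 250 bases before the RefSeq start on GRCh38.p14, read in the direction of the gene. Capitals mark matches to the 4 motifs searched on both strands: TATAAA (the TATA box), ATTTGCAT (the octamer bound by OCT1), GGTCC (the core of a promoter element of H4 genes) and CCAAT. The motifs can overlap, as TATAAA does with its own reverse complement in TTTATAAA and as the reverse complement of GGTCC does with CCAAT in GGACCAAT, and an overlapping pair is printed as 1 run of capitals. The coordinates are chr6:26020201-26020450 (+) for H3C1, chr6:27132796-27133045 (-) for H2BC11, chr6:27893186-27893435 (-) for H2AC17, chr6:26250636-26250885 (-) for H3C7 and chr1:149886668-149886917 (+) for H2AC20.
H3C1: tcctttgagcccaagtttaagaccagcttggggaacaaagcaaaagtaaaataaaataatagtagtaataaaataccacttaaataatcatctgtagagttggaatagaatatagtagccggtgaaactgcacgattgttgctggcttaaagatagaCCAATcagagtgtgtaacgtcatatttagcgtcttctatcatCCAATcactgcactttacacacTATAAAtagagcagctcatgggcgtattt
H2BC11: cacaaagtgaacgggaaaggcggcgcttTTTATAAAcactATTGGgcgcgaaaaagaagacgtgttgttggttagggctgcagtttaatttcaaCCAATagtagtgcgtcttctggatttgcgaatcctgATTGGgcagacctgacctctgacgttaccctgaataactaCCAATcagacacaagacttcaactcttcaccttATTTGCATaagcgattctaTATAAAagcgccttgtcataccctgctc
H2AC17: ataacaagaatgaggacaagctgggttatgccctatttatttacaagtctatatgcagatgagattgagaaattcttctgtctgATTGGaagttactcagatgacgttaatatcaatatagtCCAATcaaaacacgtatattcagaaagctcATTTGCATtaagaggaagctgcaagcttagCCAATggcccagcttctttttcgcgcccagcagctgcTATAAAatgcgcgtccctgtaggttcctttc
H3C7: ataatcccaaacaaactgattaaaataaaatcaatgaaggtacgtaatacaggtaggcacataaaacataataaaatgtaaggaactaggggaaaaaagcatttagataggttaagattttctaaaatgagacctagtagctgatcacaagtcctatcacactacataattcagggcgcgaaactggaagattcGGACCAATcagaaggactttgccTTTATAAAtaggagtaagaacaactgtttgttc
H2AC20: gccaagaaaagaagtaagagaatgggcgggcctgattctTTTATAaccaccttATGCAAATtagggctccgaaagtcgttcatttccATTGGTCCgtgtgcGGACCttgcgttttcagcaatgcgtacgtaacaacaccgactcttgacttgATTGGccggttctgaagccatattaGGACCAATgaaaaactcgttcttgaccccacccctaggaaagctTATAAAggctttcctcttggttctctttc

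All 5 hold a TATAAA whose first base lies at -31 to -28 from the start, and at least 1 CCAAT. The octamer stands in H2BC11, H2AC17 and H2AC20 and in neither H3 promoter. Over the 300-base promoters of the RefSeq table, which run past the start and cover 64 of the 69 histone genes, TATAAA was in 65.6% of histone promoters and 9.63% of all 15842. CCAAT was in 84.4% of histone promoters and 36.4% of all, and ATTTGCAT in 40.6% and 1.70%. The octamer matches sat in 11 of 16 H2A and 14 of 18 H2B promoters and in none of 13 H4 promoters, while GGTCC sat in 12 of 13 H4 promoters, 32.8% of histone promoters and 51.2% of all. TATAAA was in 5 of 9 promoters of genes in all 8 lists, 17 of 23 of genes in more postconfluent lists and 17 of 26 of genes in no list. In the same order, ATTTGCAT was in 2 of 9, 13 of 23 and 9 of 26, GGTCC in 1 of 9, 8 of 23 and 10 of 26, and CCAAT in 8 of 9, 21 of 23 and 20 of 26. Promoters of head-to-head pairs such as H2AC17 and H2BC17 overlap and both strands were searched, so 1 match can count for both genes. These shares are descriptions and were not tested.

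Within a single isoform more histone genes were seen on the postconfluent side and none on the other. For H2A.Z.2, 10 histone genes were in both postconfluent and neither subconfluent list, where all genes gave 0.664%, and none was the other way round (0.429% of all genes). Beside the 5 above they were the H2A genes H2AC4, H2AC11 and H2AC15, the H2B gene H2BC15 and the H4 gene H4C5. H2AC4 stood at 56.2 and 44.5, H2AC11 at 71.1 and 39.7, the shared interval of H2AC15 and H2BC15 at 44.8 and 35.6, and H4C5 at 60.8 and 32.7 in the 2 H2A.Z.2 postconfluent lists. H2AC11 lies beside H2BC11, which had the same value in H2A.Z.2 postconfluent Exp1 and was occupied in every list. In the H2A.Z.1 subconfluent Exp1 list, H2AC4 stood at 13.5, H2AC11 at 56.8 and H2AC15 and H2BC15 at 30.5, while H4C5 was unoccupied. For H2A.Z.1, 7 histone genes were in both postconfluent and neither subconfluent list (0.509% of all genes) and none the other way round (0.594%). The 2 beside the 5 above were H3 genes, H3C2 at 51.2 and 33.2 and H3C10 at 1.97 and 0.820 in the H2A.Z.1 postconfluent lists. H3C10 sat near the lower end of the shortened H2A.Z.1 lists by fold enrichment, and at 30.3 and 39.3 in the whole ones. Leaving out a list could only loosen these counts: the H2A.Z.2 count was 17 without the postconfluent Exp1 list (1.62% of all genes), and the H2A.Z.1 count was 12 without the postconfluent Exp2 list (0.923%) and 14 without the subconfluent Exp1 list (1.53%).

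The other genes in more postconfluent lists were found in 1 to 4 of them. H2BC10 and H3C8, an H2B and an H3 gene that share an interval, were in all 4 postconfluent lists at 49.7 to 78.3 and in 3 subconfluent lists at 19.99 to 52.2. H2BC12 and H2AC12, an H2B and an H2A gene, were in all 4 postconfluent lists at 44.2 to 60.5 and in 2 subconfluent lists at 24.2 and 29.0. H2AC13 was in all 4 at 32.6 to 66.4 and in 2 subconfluent lists at 23.5 and 32.9, and H2AC21 in all 4 at 32.97 to 55.1 and in 2 subconfluent lists at 11.03 and 14.1. The values of the 2 states overlapped at H2BC10, H3C8 and H2AC13 and did not at H2BC12, H2AC12 and H2AC21. In no subconfluent list but in 2 postconfluent lists were H2BC21 at 32.6 and 48.9, H3C6 at 11.6 and 16.2, H2BC9 at 54.7 and 17.1 and H4C11 at 15.6 and 34.6. In 1 postconfluent list alone were H2BC6 at 20.7 and the pair H2AC14 and H2BC14 at 9.58. Going the other way, H2BC5 was in 4 subconfluent lists at 22.2 to 52.2 and 3 postconfluent lists at 29.1 to 54.0. H4C6 at 24.2 and H4C8 at 15.2 were each in the H2A.Z.1 subconfluent Exp1 list alone. H1-2 was in 3 lists of each state, at 6.70 to 69.5 in postconfluent and 6.78 to 56.0 in subconfluent cells. H2BC8 and H2AC8, which share an interval, were in 1 list of each state, at 35.3 in postconfluent and 6.69 in subconfluent cells.

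The test was repeated, after the values had been seen, with absent genes kept at the lowest rank of their list, which brought 41 histone genes into a fit of 13407 genes. No histone gene passed, and 2 genes did over the whole fit (0.0149%). The smallest limma adjusted p was 0.231, at H2AC17 and H2BC17, with a postconfluent minus subconfluent difference of 1.02 in score. The 41 genes entered by having an interval in at least 1 list, in some cases in postconfluent lists only, so this fit restates the presence counted above and adds no separate support.

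The isoforms were not told apart at histone genes. No histone gene was in all lists of one isoform and none of the other, by either side: all genes gave 1 for H2A.Z.2 (0.00499%) and 9 for H2A.Z.1 (0.0449%). The same held within each state. No histone gene was in both H2A.Z.2 lists and neither H2A.Z.1 list of postconfluent cells (0.14% of all genes) or of subconfluent cells (0.17%), or the reverse (0.499% and 0.649%). With 1 list left out, up to 4 histone genes in postconfluent cells (without H2A.Z.2 Exp1) and up to 6 in subconfluent cells (without H2A.Z.1 Exp2) were in the lists of a single isoform, where all genes gave 2.06% and 1.8%. In counts, H2A.Z.2 lists held 6 fewer histone genes than H2A.Z.1 lists in postconfluent Exp1, 8 more in postconfluent Exp2, 10 fewer in subconfluent Exp1 and 5 more in subconfluent Exp2. The sign follows the experiment and not the state, and only in Exp2 were the 2 isoforms in the same sequencing run. In each pair, one list's histone genes were wholly contained in the other's. Over all protein-coding genes, 279, 353, 283 and 312 were in the H2A.Z.2 list of these pairs only, in the same order. In the H2A.Z.1 list only were 517, 556, 536 and 780. By strength no gene passed limma between isoforms (0% of ranked genes, 3.75% at an unadjusted p under 0.05). The largest H2A.Z.2 minus H2A.Z.1 differences among histone genes were 0.57 ± 0.37 at H2AC25 and H2BC26, -0.49 ± 0.38 at H2AC16, 0.34 ± 0.37 at H4C16 and 0.32 ± 0.36 at H1-3 (SE, limma adjusted p = 0.999 for each). Within H2A.Z.1, the postconfluent minus subconfluent difference of H1-5 was 1.35 ± 0.55 (unadjusted p = 0.0239, limma adjusted p = 0.679), and it was the only histone gene under an unadjusted 0.05 there, where 6.91% of all ranked genes were. No ranked gene passed within H2A.Z.1, within H2A.Z.2 (5.83% at an unadjusted p under 0.05), between isoforms in postconfluent cells (3.53%) or in subconfluent cells (3.71%), or for the interaction (3.18%).

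The 28 histone genes in no shortened list comprised 9 H4, 6 H3, 5 H2A, 5 H2B and 3 H1 genes, among them the testis histone genes H1-6, H2AC1 and H2BC1. In whole lists 21 (30.4%) were unoccupied, against 26.1% of all genes: H2BC18, H3C13, H4C14, H3C14, H2AC18, H4C15, H2AC19, H3C15, H2AC1, H2BC1, H1-1, H2BC3, H3C3, H4C3, H1-6, H2BC4, H2AC6, H4C7, H4C9, H4C12 and H4C13. The other 7 appeared in 1 to 3 whole lists. H4C2, H1-4, H2AC7 and H2BC7 appeared in 1 postconfluent list each, H3C4 in 2 postconfluent and 1 subconfluent, H4C4 in 1 of each and H3C11 in 1 subconfluent list. On chromosome 1, 8 neighbouring histone genes of 149.78 to 149.86 Mb formed an unbroken run. None had an interval within 1 kb of a gene end in any whole list. The stretch is not empty, since LOC124904411, which lies within the body of H2BC18, was occupied in 4 postconfluent and 3 subconfluent lists.

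Part of that run is duplicated sequence, where reads of 85 bases can match more than 1 place. Of the 216 windows of 85 bases in a promoter, 216 in H4C14 and H4C15, 215 in H2AC18 and H2AC19 and 212 in H3C14 and H3C15 occurred again in another promoter of the table. The sources used here do not say how the authors treated reads with several matches, so absence at these 6 genes cannot be read. The promoters of H4C14 and H4C15 were the same in all 250 bases before the start. That of H2AC19, shown as an example of the duplicated promoters, is chr1:149850811-149851060 (+).
H2AC19: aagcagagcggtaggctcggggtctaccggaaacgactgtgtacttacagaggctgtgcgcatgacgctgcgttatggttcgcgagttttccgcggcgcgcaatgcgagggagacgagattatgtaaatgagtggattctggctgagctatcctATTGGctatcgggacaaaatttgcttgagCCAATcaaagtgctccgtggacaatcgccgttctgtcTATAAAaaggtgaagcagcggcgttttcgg
Over all promoters, 20.3% of the 64 histone promoters held a repeated window and 2.89% of all 15842 did. Of the 20 histone genes with a promoter in the table and no interval in any whole list, 8 held repeated windows and 12 did not. The other 5 genes with repeated windows were H2BC13, H2AC13, H2AC14, H2BC14 and H4C11, and each was occupied in at least 1 list. The part of repeated sequence in the other results was not tested.

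Summit distances were taken for intervals within 1 kb of a known start, so that summits lie around the start by this choice. The median summit distance from the start was -168, 118, 12 and 147 bp in the postconfluent lists and -173, -46.5, -86.5 and 31 bp in the subconfluent lists, where a negative value lies before the start. Other genes had medians of -123.5 to 76 bp in postconfluent and -171 to 25 bp in subconfluent lists. The middle 50% of histone summits ran from -478, -487, -499 and -564 bp to 299, 206, 255 and 370 bp in the 4 postconfluent lists, a span as long as many of these genes. In subconfluent lists it ran from -441.5, -456, -448 and -575 bp to 643, 276.5, 581 and 790.5 bp. For other genes it was narrower, from -368, -324, -365 and -313 bp to 228, 203, 213 and 220 bp in postconfluent lists. In subconfluent lists that of other genes ran from -377, -347, -362 and -349 bp to 199, 183, 198 and 236 bp. Counting only intervals at the start left 24, 33, 29 and 25 of 64 histone genes occupied in postconfluent lists and 11, 16, 20 and 12 in subconfluent lists, and the 2 states again did not overlap. Of all genes with a known start, 60.9% to 62.4% were occupied in postconfluent and 60.6% to 62.7% in subconfluent lists.

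Genes that make, process or carry replication-dependent histones were nearly all occupied throughout. The 39 genes listed for this were chosen with results of these data known. Of them, 37 were occupied in all 8 lists, none in no list, and none in more lists of one state than of the other, so a change in presence with confluence could hardly have been seen here. The exceptions were YY1, a transcription factor gene in 1 list of each state, and CHAF1A, which encodes a subunit of chromatin assembly factor 1, in 2 of each. None of the 37 passed limma by state or by isoform, and 17 had a postconfluent minus subconfluent difference above 0. The largest by state were at SNRPB, which encodes a core snRNP protein, with 0.86 ± 0.40 (SE, limma adjusted p = 0.529), NCBP2, a cap-binding subunit gene, with -0.82 ± 0.36 (limma adjusted p = 0.490) and CPSF3, the gene of the 3′ end nuclease, with 0.71 ± 0.37 (limma adjusted p = 0.587). The largest by isoform were at CCNE2, the gene of cyclin E2, with -0.79 ± 0.44, SLBP with 0.65 ± 0.39 and SNRPB with 0.64 ± 0.40 (SE, limma adjusted p = 0.999 for each). NPAT stood at percentiles 71.9 to 92.1 over the 8 lists and SLBP at 20.996 to 65.2.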

How the data were processed

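The files were 8 narrowPeak lists, 1 for each Flag precipitation, so replicates were not pooled. The labels name 17 samples, and 9 of them (total H2A.Z precipitations and an input) were not analysed here. Per the submitters' processing notes, reads (85 bp, single-end) were handled with BWA and deepTools on hg38. No source used here gives the peak caller, its control or any use of the spike-in. In the deposited score column, the −log10 q-value is multiplied by 10 and cut to a whole number. The deposited fold enrichment is a ratio, and the deposited −log10 p-value and −log10 q-value columns are on a −log10 scale. The last deposited column, another distance in bp, places the summit.

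Lists were cut to their 30603 intervals of highest −log10 p, which leaves the shortest list whole. Fold enrichments were turned into percentiles within a list and never compared as levels between lists. Genes, starts and promoters came from RefSeq (GRCh38.p14). The limma fit (version 3.58.1, under R 4.3.3) took normal scores, a mean for each of 4 groups and a shared spread, and its 2-sided p-values were adjusted by Benjamini-Hochberg over all ranked genes. The fit was tested on simulated data. Other steps used Python 3.11.15, pandas 2.3.3, numpy 2.4.6 and matplotlib 3.10.9. The depth of the lists is unknown, so no counting interval is given.

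Genes named with values in every list were, in each family, the strongest and weakest in all 8 lists, the 5 largest differences by state and by isoform, and those present in one group and absent from another. All others are named with the values they have. The genes, lists and tests were chosen with earlier results of these data known. Alternatives were whole, half-length and equal-cover lists, a 500 bp window, the summit or a single gene end, ranks by −log10 p, merged regions, a replicate block and leaving out each list.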

Additional observations from a re-analysis of the deposited data

Results flagged for a closer look

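At H2AC25 and H2BC26, which share an interval, the postconfluent value lay above the subconfluent one in both experiments for H2A.Z.2 and below it in both for H2A.Z.1. The difference between isoforms was 0.58 in score (limma interaction adjusted p = 1.0), so the opposite signs did not pass. At H2BC13 the H2A.Z.2 score lay below that of H2A.Z.1 in both experiments of postconfluent cells and above it in both of subconfluent cells, with an interaction of -0.86 (limma adjusted p = 1.0). These scores rank the 10919 genes in all 8 lists. By percentile among a list's own intervals the order was not the same, since H2A.Z.2 stood at 23.5 and H2A.Z.1 at 32.9 in subconfluent Exp1. At H1-5 the same was seen, with an interaction of -2.01 ± 0.78 (SE, unadjusted p = 0.0179, limma adjusted p = 1.0), and 3.18% of all ranked genes had an unadjusted p under 0.05. Causes were not tested.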

How the results depend on the processing

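The members and call counts kept their direction in most settings. The difference in occupied histone genes, postconfluent minus subconfluent, was 14.75 (mean counts 32 and 17.25) and ranged from 13.1 to 16.7 with 1 list left out. It was 14.5 (38.75 and 24.25) with whole lists, 9 (15.75 and 6.75) with half-length lists, 7.75 (17.75 and 10) with equal covered length and 13 (27.75 and 14.75) at starts only. Genes in all 8 lists numbered 4 with half-length and 4 with equal-cover lists. Genes in postconfluent lists only numbered 2 with half-length lists, 0 with equal cover and 3 at starts only, and 5 to 9 with 1 list left out. Within H2A.Z.1 they numbered 4 with equal cover, with 1 gene on the subconfluent side (0 to 2 with 1 list left out), and 7 to 14 with 1 list left out. Within H2A.Z.2 they numbered 4 with half-length lists, 6 with equal cover and 10 to 17 with 1 list left out, which gave 0 to 1 on the subconfluent side. By isoform, subconfluent cells gave 1 gene with whole lists, with half-length lists and with summits in the window, and 0 to 6 with 1 list left out. Postconfluent cells gave 2 with half-length lists, 3 with equal cover and 0 to 4 with 1 list left out. Genes in more subconfluent lists numbered 6 with equal cover, 1 with a 500 bp window and 3 to 6 with 1 list left out. The mean of the lists' median percentiles was 62.2 with whole, 29.5 with half-length and 31.0 with equal-cover lists.

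No histone gene passed limma in any comparison or setting. Over all ranked genes, calls by state numbered 6, and 13 with whole lists, 0 with half-length lists, 0 with equal cover, 3 with summits, 44 ranked by −log10 p, 2 with absent genes at the lowest rank, 0 for merged regions and 0 to 12 with 1 list left out. The main fit did not pair lists by experiment number. Deviations of lists from their group means correlated by experiment number at -0.053 to 0.21 over 6 pairs of groups. The highest were in the 2 pairs of groups of 1 isoform, which share sequencing runs, at 0.21 for H2A.Z.1 and 0.16 for H2A.Z.2. With a replicate block, calls numbered 14 by state, 2 within H2A.Z.1 and 1 within H2A.Z.2. H2BC11 then fell under an unadjusted 0.05 by state (limma adjusted p = 0.480), as did 10.4% of all ranked genes, and H1-5 by isoform in subconfluent cells (limma adjusted p = 0.998), as did 4.48%. Within H2A.Z.1, summits gave 2, ranks by −log10 p 2 and leaving out 1 list 0 to 2. Within H2A.Z.2, the 500 bp window gave 1 and leaving out 1 list 0 to 1. Between isoforms in postconfluent cells, the 500 bp window gave 2 and summits 1. The state difference of H3C1 and H4C1, 0.07 in score, was -0.029 ranked by −log10 p and -0.18 to 0.32 with 1 list left out, and that of H2AC25 and H2BC26 was -0.044 to 0.45. The cause of these shifts was not tested. Fits with 1 list left out assume that a group's lone list varies like the others. Ranking by −log10 p leaves presence as it was. Starts only and absent genes at the lowest rank were chosen after seeing the data.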
